A study of Mus musculus with 4 samples.

Results

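A set of 10 genes that are recurrently mutated in human clonal haematopoiesis were followed in single-cell RNA sequencing of marrow progenitors from mice that had femoral artery ligation or sham surgery. The 10 genes were chosen by name, and all 10 were found among the 32227 genes of the count tables. They were Dnmt3a and Tet2, which set and remove DNA methylation, the chromatin gene Asxl1, the DNA damage genes Trp53 and Ppm1d, the splicing genes Srsf2, Sf3b1 and U2af1, and the signalling genes Jak2 and Cbl. The surgery group had the femoral artery tied off, which cuts the main blood supply of a hind limb, and the sham group had sham surgery. Mice of both groups were wild type and had received E0771 cells, a line of mouse breast cancer, 3 days before surgery. Neither group therefore served as a control without tumour cells. Marrow was taken 9 days after surgery and sorted for cells that lacked lineage markers and carried cKit, whatever their Sca1, which enriches stem and progenitor cells. Each of 2 captures, called batch 1 and batch 2, pooled 2 surgery and 2 sham replicates that carried hashtags, which gave 4 surgery and 4 sham replicates. The sources used here do not say whether a replicate was 1 mouse or a pool, nor the age of the mice, so the spread on which p-values rest may be technical.

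Clonal haematopoiesis is the outgrowth of blood cells from a single mutated stem cell, and in humans it becomes more frequent with age. Most driver mutations fall in regulators of DNA methylation and chromatin, in the p53 response to DNA damage, in the spliceosome, or in signalling from cytokine receptors. The counts here are numbers of transcript molecules (UMIs) per gene. They carry no call of mutations, and a level of mRNA is not a measure of how many cells are mutated.

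The groups rest on the hashtags. By the treatment labels 1 capture is all ligation and 1 all sham, but the hashtag names put both groups in each capture, and the names were followed. Because every surgery value depends on them, the 4 hashtag sequences are shown; the same 4 oligonucleotides, each 15 bases long, served both captures, and each sequence has the same name in the tables and in the labels.
surgery 1: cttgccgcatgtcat
surgery 2: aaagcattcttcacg
sham 1: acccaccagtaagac
sham 2: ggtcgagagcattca
The table of batch 2 lists its surgery hashtags before its sham hashtags, the other way round from its label, and an error in those names would swap surgery and sham there. Values of the replicates or log2 ratios within each batch are therefore given for the genes named in the comparisons of surgery and sham.

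Of the 32273 barcodes in the tables, 26942 passed the filters with a single hashtag, 14678 in batch 1 and 12264 in batch 2. The replicates held 1883 to 3530 surgery cells and 2398 to 5889 sham cells. Median depth was 6271 to 12406 UMIs per cell in surgery replicates and 5860.5 to 10750 in sham replicates, and every batch 2 replicate was deeper than every batch 1 replicate. The 2 captures shared 5 barcode sequences. Cells were sorted into classes by lists of marker genes, none of which is among the 10 genes, and the class names stand for cells like that type. In all, 9 classes had at least 10 cells in every replicate, and 8305 cells stayed without a class. The classes were stem and early multipotent cells (HSC class, 1252 cells), lymphoid-primed progenitors (907), neutrophil-granulocyte progenitors (7748), monocyte progenitors (1537), erythroid cells (2456), megakaryocyte cells (417), basophil-mast cells (1036), B cells (2795), and T, NK or innate lymphoid cells (T/NK class, 390). No cell was gated as endothelial, stromal or epithelial tumour. No class passed a two-sided exact permutation test of its share of surgery and sham cells (lowest adjusted p over the 9 classes 0.686). With 4 replicates per group, a single class could not pass after adjustment over 9 classes, however wide its gap. The test also left batch out, and it does not decide whether shares changed. The widest gap was that of the neutrophil-granulocyte progenitors, at 31.6% ± 5.55 of surgery cells and 27.4% ± 1.87 of sham cells (SD, n = 4 each). It differed in sign between batches, with surgery minus sham at -0.46 percentage points in batch 1 and 8.93 in batch 2.

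Over all cells, none of the 10 genes passed the test of surgery against sham. Their fold changes ran between -0.04 for Asxl1 and 0.04 for Cbl on the log2 scale, and all 10 genes had overlapping groups. Groups without overlap were found for 1.68% of all genes tested, so overlap was the usual case. The test was edgeR's quasi-likelihood test with batch as a term, adjusted over the 16858 genes tested, of which 7 (0.0415%) were called at an adjusted p under 0.05. It called 0 of the 10 genes, 0 had an unadjusted p under 0.05 against 4.53% of all genes, and DESeq2 also called 0. The 95% intervals of the 10 fold changes all lay between -0.16 and 0.20, so that changes of more than 1.15-fold in either direction were outside each of them. Levels are given below as UMIs per 1000000 UMIs of a replicate (CPM), with the batch 1 replicates before the batch 2 replicates of a group. The counting took UMIs per gene without regard to length, so levels are compared between cells and not between genes.

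**Figure D1:**
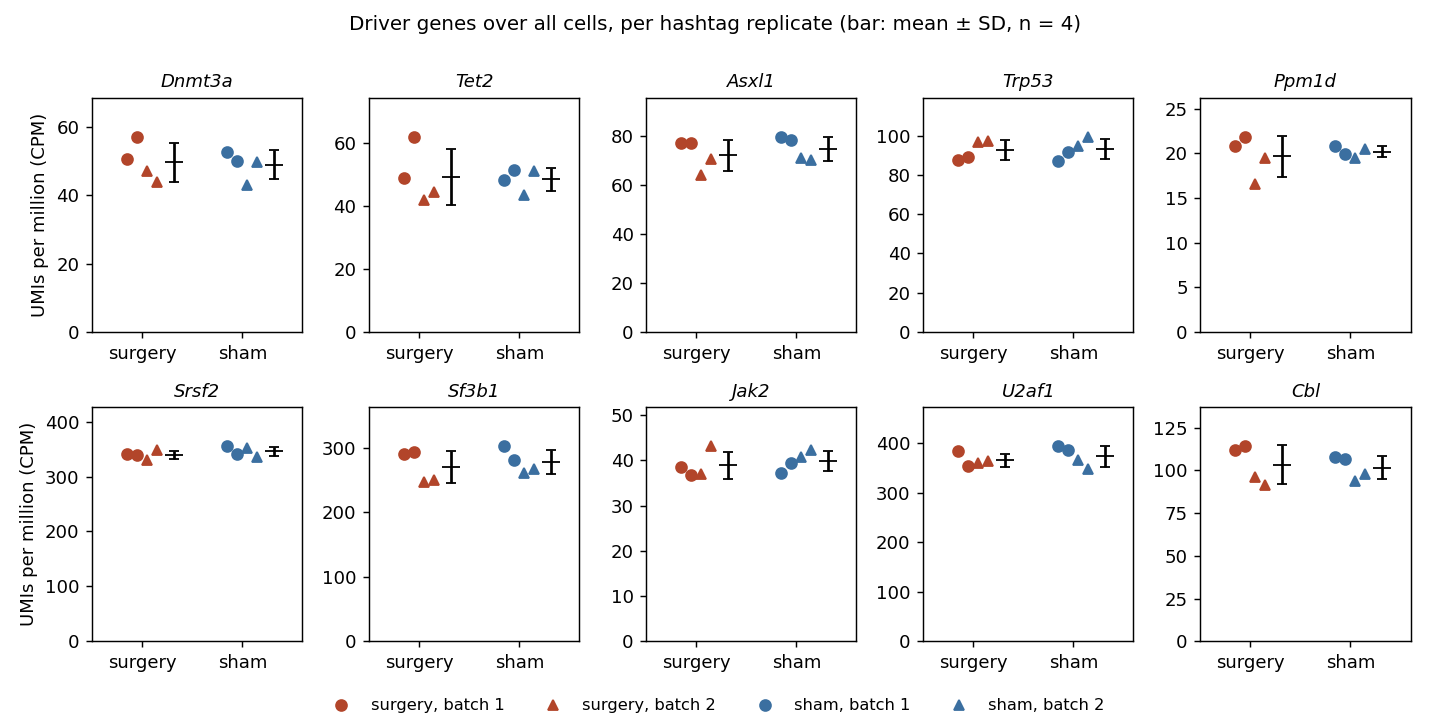
Level of each of the 10 genes over all cells, in CPM (vertical axis, from 0), for 4 surgery replicates (left) and 4 sham replicates (right) of each panel; circles are batch 1, triangles batch 2, and the bar is the mean ± SD. The groups overlap in all 10 panels. The mean is lower in batch 2 than in batch 1 in both groups for every gene except Trp53 and Jak2.

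The DNA methylation pair encodes enzymes with opposite effects on methylation. Dnmt3a (ENSMUSG00000020661, chr12:3806007-3914443, plus strand, GRCm38) encodes a methyltransferase that adds methyl groups to cytosines de novo. Tet2 (ENSMUSG00000040943, chr3:133463679-133545139, minus strand) encodes a dioxygenase that oxidises methylcytosine, the first step of its removal. Dnmt3a had 50.5, 57.0, 47.0 and 43.9 CPM in surgery replicates, against 52.7, 50.1, 42.9 and 49.7 CPM in sham replicates. The highest and the second lowest of the 8 values were both surgery replicates, and the log2 fold change was 0.03 ± 0.05 (SE). Tet2 had 48.7, 61.8, 41.8 and 44.3 CPM in surgery replicates, against 48.3, 51.3, 43.4 and 50.9 CPM in sham replicates. A surgery replicate was again both the highest and the lowest, and the log2 fold change was 0.02 ± 0.08. For both genes the sign differed between batches, with log2 ratios of the surgery over the sham mean of 0.06 in batch 1 and -0.03 in batch 2 for Dnmt3a, and of 0.15 in batch 1 and -0.13 in batch 2 for Tet2. The difference between batches did not pass the interaction test for either gene (edgeR, adjusted p = 0.932 for Dnmt3a and 0.694 for Tet2).

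Asxl1 (ENSMUSG00000042548, chr2:153345829-153404007, plus strand) encodes a scaffold of the BAP1 complex that removes ubiquitin from histone H2A. It had 77.1, 77.4, 64.0 and 70.7 CPM in surgery replicates, against 79.7, 78.7, 71.0 and 70.3 CPM in sham replicates. The surgery values lay below or among the sham values, and the log2 fold change was -0.04 ± 0.03. All 4 replicates of batch 1 were above all 4 of batch 2, with means of 78.2 and 69.0 CPM, a wider gap than that between the groups.

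Trp53 (ENSMUSG00000059552, chr11:69580359-69591873, plus strand) encodes p53, the transcription factor that halts or kills cells with damaged DNA. Ppm1d (ENSMUSG00000020525, chr11:85311244-85347066, plus strand) encodes the phosphatase WIP1, which p53 induces and which then turns the response down. Trp53 had 87.5, 88.9, 96.9 and 97.3 CPM in surgery replicates, against 86.8, 91.5, 94.8 and 99.2 CPM in sham replicates. Surgery and sham values interleaved within both batches, and the log2 fold change was 0.01 ± 0.03. Trp53 was higher in batch 2 (mean 97.1 CPM) than in batch 1 (88.7 CPM), the reverse of Asxl1. Ppm1d had 20.9, 21.8, 16.6 and 19.4 CPM in surgery replicates, against 20.8, 19.9, 19.5 and 20.5 CPM in sham replicates. Its surgery replicates spread more widely than its sham replicates and enclosed them, with a log2 fold change of -0.02 ± 0.06 (log2 ratios of the means of 0.07 in batch 1 and -0.15 in batch 2).

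Of the spliceosome genes, Srsf2 (ENSMUSG00000034120, chr11:116849901-116853094, minus strand) encodes a serine/arginine-rich protein that binds exonic enhancers. Sf3b1 (ENSMUSG00000025982, chr1:54985169-55027481, minus strand) encodes the core subunit of U2 snRNP that secures the branch point. U2af1 (ENSMUSG00000061613, chr17:31647081-31658892, minus strand) encodes the small U2AF subunit that reads the AG at the 3′ splice site. Srsf2 had 341, 339, 331 and 348 CPM in surgery replicates, against 355, 341, 351 and 336 CPM in sham replicates. Sf3b1 had 289, 293, 247 and 250.2 CPM in surgery replicates, against 302, 281, 260.4 and 267 CPM in sham replicates. U2af1 had 385, 353, 359.8 and 364 CPM in surgery replicates, against 394, 387, 365 and 349 CPM in sham replicates. The surgery mean was the lower in all 3 genes, by less than the spread between replicates, with log2 fold changes of -0.01 ± 0.03, -0.03 ± 0.03 and -0.01 ± 0.04. For U2af1 this held in batch 1 (log2 ratio -0.08) and not in batch 2 (0.02). For Sf3b1 the log2 ratio was -0.003 in batch 1 and -0.09 in batch 2, where both surgery replicates were below both sham replicates. Sf3b1 averaged 291 CPM in batch 1 and 256.2 CPM in batch 2, and the 2 batches did not overlap.

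Of the signalling genes, Jak2 (ENSMUSG00000024789, chr19:29251828-29313080, plus strand) encodes the kinase that carries signals from the receptors for erythropoietin, thrombopoietin and IL-3. Cbl (ENSMUSG00000034342, chr9:44142976-44234049, minus strand) encodes a ubiquitin ligase that marks activated Kit, Flt3 and other receptors for degradation. Jak2 had 38.6, 36.8, 37.0 and 43.1 CPM in surgery replicates, against 37.1, 39.4, 40.8 and 42.3 CPM in sham replicates. Its lowest and highest values both came from surgery replicates, and the log2 fold change was -0.02 ± 0.05. Cbl had 112, 114, 96.1 and 91.2 CPM in surgery replicates, against 108, 107, 94.0 and 97.6 CPM in sham replicates. The surgery replicates of batch 1 were the 2 highest of the 8 while a surgery replicate of batch 2 was the lowest, and the log2 fold change was 0.04 ± 0.03 (log2 ratios of 0.08 in batch 1 and -0.03 in batch 2).

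Depth was not small for any of these values. Over the 8 replicates the genes had between 5591 UMIs (Ppm1d) and 103634 UMIs (U2af1), and the lowest count of any gene in a replicate was 407. Some genes overlap a neighbour on the opposite strand, and the sources used here do not state whether counting used the strand. Exons of Srsf2 share 460 bases with Mettl23 (34.5 CPM) and 288 with Mfsd11 (14.1 CPM), those of Asxl1 share 197 with 2500004C02Rik (2.67 CPM), those of Dnmt3a share 133 with Dnmt3aos (0.0164 CPM) and those of Tet2 share 43 with Gm42567 (1.33 CPM). Reads in these stretches cannot be assigned to a gene with certainty.

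The proximal promoters of most of the 10 genes were rich in CG dinucleotides, sites where the enzymes that Dnmt3a and Tet2 encode act. RefSeq (GRCm38.p6) listed 13 windows for the 10 genes, each running from 250 bases before to 50 bases after a transcript start, 300 bases in all. They held between 10 and 57 CG, with a median of 40, against a median of 7 over the 32851 windows of all genes. A gene with several windows counts once for each. The lowest were those of Trp53 (10), Asxl1 (13) and a Dnmt3a window (18), at percentiles 56.5, 62.1 and 70.3 of all windows. No set of genes of like expression was compared. The search was for the letters CG, which read the same on both strands, and 43.5% of all windows held at least 10. The windows with the most and the fewest CG are shown 5′ to 3′ on the strand of the gene, with every CG in capitals. The first is that of Tet2, chr3:133544341-133544640 on the minus strand, with 57 CG, and the second is that of Trp53, chr11:69580109-69580408 on the plus strand, with 10.
Tet2: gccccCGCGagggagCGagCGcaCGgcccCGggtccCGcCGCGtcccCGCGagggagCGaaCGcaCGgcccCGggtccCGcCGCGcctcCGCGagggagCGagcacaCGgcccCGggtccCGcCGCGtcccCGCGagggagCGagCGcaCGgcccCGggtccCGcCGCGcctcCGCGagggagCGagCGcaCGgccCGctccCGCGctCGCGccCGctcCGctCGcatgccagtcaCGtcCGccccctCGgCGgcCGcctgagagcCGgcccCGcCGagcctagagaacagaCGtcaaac
Trp53: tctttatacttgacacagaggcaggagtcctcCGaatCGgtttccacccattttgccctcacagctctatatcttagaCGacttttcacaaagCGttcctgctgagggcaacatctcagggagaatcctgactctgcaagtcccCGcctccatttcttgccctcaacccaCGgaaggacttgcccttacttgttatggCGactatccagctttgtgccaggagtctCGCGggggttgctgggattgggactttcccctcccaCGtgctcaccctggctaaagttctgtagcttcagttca
The Trp53 window is low for this set and still above the median of all windows. Methylation was not measured in these samples.

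Across the 9 cell classes, the levels of the 10 genes spread more widely than between surgery and sham. Dnmt3a was highest in lymphoid-primed, megakaryocyte and HSC classes and lowest in erythroid cells, Tet2 was highest in basophil-mast and monocyte classes and also lowest in erythroid cells, Jak2 was highest in basophil-mast cells, and Cbl was highest in the T/NK class. The mean of the highest class was between 1.73 times (Trp53) and 6.05 times (Cbl) that of the lowest. The highest class exceeded the lowest in 8 of 8 replicates for all 10 genes. Both classes were picked by the means of these same replicates, so that count is a description and no test. Classes next to each other in a gene's order were compared within replicates by a two-sided exact sign-flip permutation test of log2(CPM + 1), with adjustment over the 80 pairs of neighbours; with 8 replicates the smallest possible p is 0.0078. The order, and with it the pairs and their direction, came from the means of these same replicates. Their p-values therefore describe the order and are not an independent test of it. Of the 80 pairs, 16 passed, each at that smallest p, with an adjusted p of 0.0391 (exact permutation test). The remaining pairs of neighbours did not pass, and classes further apart in an order were not tested against each other. When each cell was thinned to 2000 UMIs, with shallower cells left out, 0 of the 80 pairs passed and 14 had an unadjusted p under 0.05, against 28 unthinned (exact permutation test). Since 13 pairs at the smallest p are needed for any to pass, and 7 reached it after thinning, no pair could pass there. The 16 pairs that passed unthinned kept their direction after thinning, and 10 of them had an unadjusted p under 0.05 (exact permutation test). Thinned counts are drawn from the same UMIs, so they give no independent support. At that depth the highest class was the same for 7 and the lowest for 8 of the 10 genes. With the stricter gate 17 pairs passed, and 11 of the 16 pairs above reached the smallest p there. Classes differ in depth, from a median of 2865 UMIs per B cell to 14827 per neutrophil-granulocyte progenitor, and the part of depth in the order was not tested beyond this thinning.

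**Figure D2:**
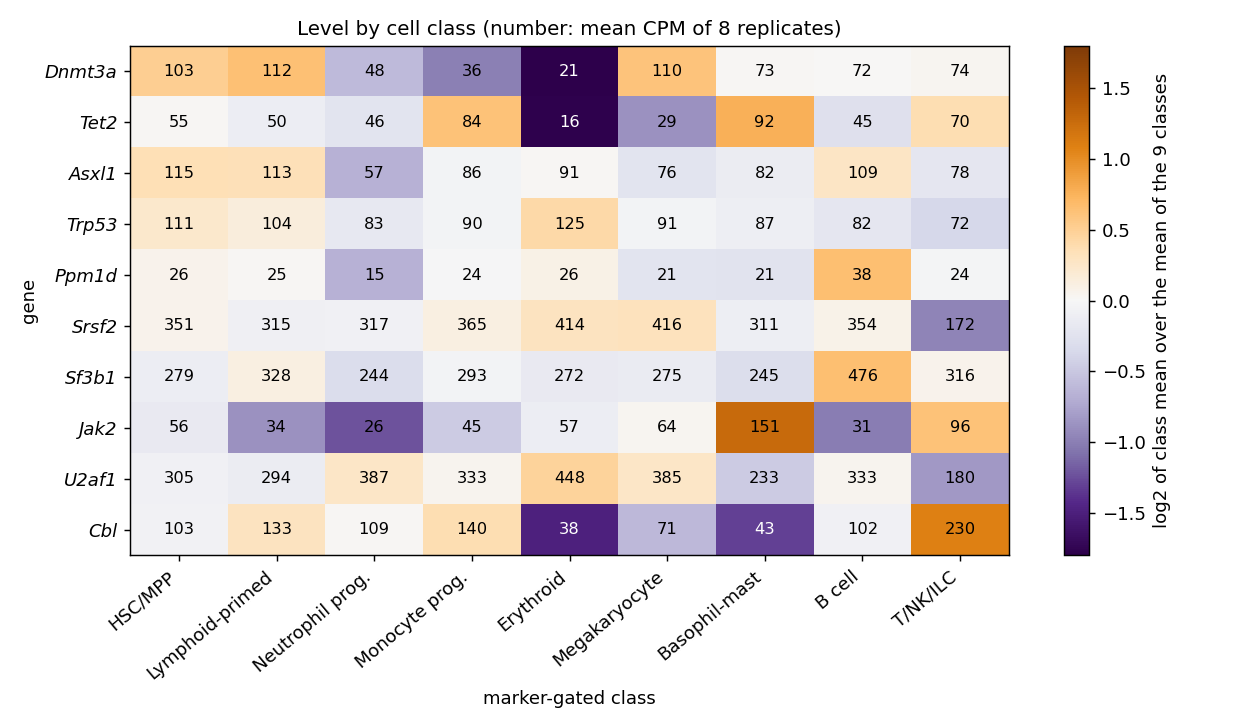
Mean level of each gene (rows) in each of the 9 marker-gated classes (columns); the number in a field is the mean CPM of 8 replicates and the colour is log2 of that mean over the mean of the 9 classes of the same gene. Erythroid cells have the lowest Dnmt3a (20.8 CPM), Tet2 (15.8 CPM) and Cbl (38.0 CPM) and the highest Trp53 (125 CPM) and U2af1 (448 CPM).

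Dnmt3a averaged 112 ± 22.0 CPM in lymphoid-primed, 110.3 ± 14.3 CPM in megakaryocyte and 103 ± 22.0 CPM in HSC-class cells (SD, n = 8 replicates here and below). These top classes did not pass against each other as neighbours, and the HSC class stood above the T/NK class, the next in order at 73.9 ± 18.5 CPM, in 8 of 8 replicates (log2 difference 0.48 ± 0.19 SD, adjusted p = 0.0391, exact permutation test). Basophil-mast and B cells followed at 73.0 ± 14.5 and 72.1 ± 12.1 CPM. The steps down to neutrophil-granulocyte progenitors (47.7 ± 4.65 CPM) and then to monocyte progenitors (36.3 ± 6.46 CPM) both passed, at the same adjusted p by the exact permutation test. Erythroid cells had 20.8 ± 3.44 CPM, below monocyte progenitors in 7 of 8 replicates (adjusted p = 0.0568, exact permutation test). From the lymphoid-primed class to the erythroid class the difference was 2.37 ± 0.43 on the log2 scale, 2.39 in batch 1 and 2.35 in batch 2.

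Tet2 was ordered differently. It averaged 92.1 ± 16.4 CPM in basophil-mast cells and 83.9 ± 10.6 CPM in monocyte progenitors, the class that was second lowest for Dnmt3a. The T/NK class had 70.3 ± 35.4 CPM with a wide spread, and the HSC, lymphoid-primed, neutrophil-granulocyte and B cell classes lay close together between 44.7 and 55.2 CPM. Megakaryocyte cells had 29.3 ± 12.2 CPM and erythroid cells 15.8 ± 3.67 CPM. None of the 8 neighbour pairs passed for Tet2 (lowest adjusted p = 0.0962, exact permutation test). Unadjusted, 2 of 8 had a p of 0.0313 by that test. Basophil-mast cells exceeded erythroid cells by 2.48 ± 0.38 on the log2 scale in 8 of 8 replicates (2.33 in batch 1 and 2.63 in batch 2). That contrast was picked by the means and not tested.

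**Figure D3:**
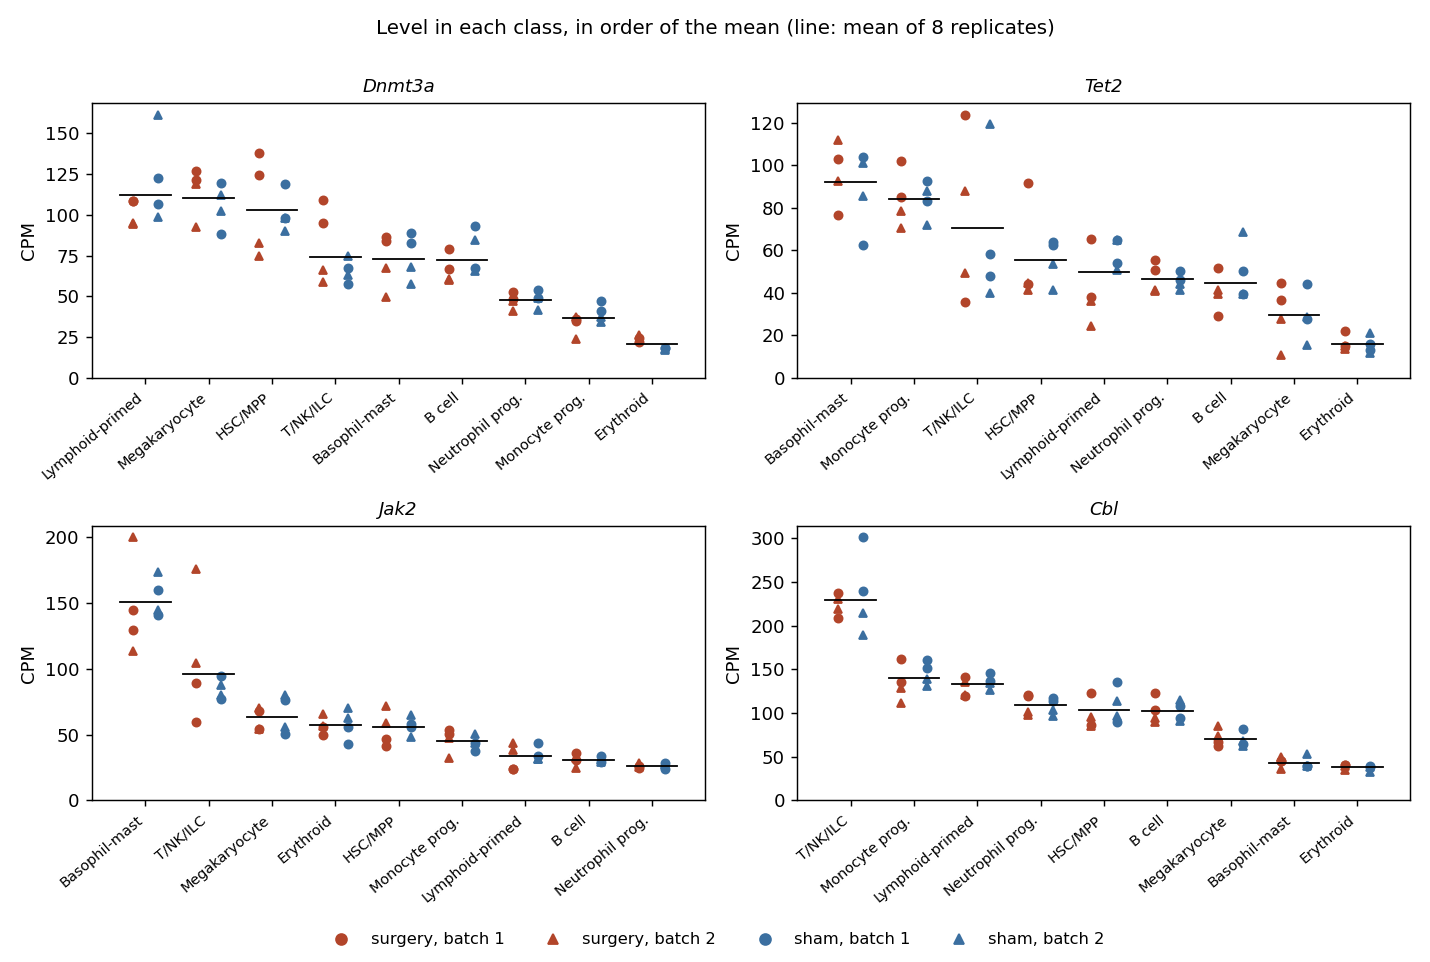
CPM (vertical axis, from 0) of Dnmt3a, Tet2, Jak2 and Cbl in each class, with classes in order of their mean for that gene; within a class surgery replicates are on the left and sham replicates on the right, circles are batch 1, triangles batch 2, and the line is the mean of 8 replicates. The 4 surgery replicates of Dnmt3a in erythroid cells (21.8 to 26.1 CPM) all lie above the 4 sham replicates (16.8 to 18.2 CPM), and Tet2 in the T/NK class spreads between 35.7 and 124 CPM.

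Asxl1 and Trp53 varied less. Asxl1 averaged 115 ± 12.2 CPM in HSC-class, 113 ± 15.0 CPM in lymphoid-primed and 109 ± 12.7 CPM in B cells, whose neighbour pairs did not pass; with the stricter gate and after thinning the lymphoid-primed class was the highest. B cells stood above erythroid cells (90.8 ± 3.69 CPM), and megakaryocyte cells (76.2 ± 13.1 CPM) above neutrophil-granulocyte progenitors (56.5 ± 3.77 CPM), in 8 of 8 replicates each. Trp53 was highest in erythroid cells at 125 ± 11.6 CPM, above the HSC class (111 ± 13.9 CPM) in 8 of 8 replicates with a log2 difference of 0.18 ± 0.10. The other 7 neighbour pairs of Trp53 did not pass, down to 72.1 ± 16.7 CPM in the T/NK class. Ppm1d averaged 38.4 ± 11.5 CPM in B cells and 15.3 ± 1.36 CPM in neutrophil-granulocyte progenitors, with the 7 other classes between 20.6 and 26.0 CPM, and none of its neighbour pairs passed (lowest adjusted p = 0.0962, exact permutation test).

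Of the splicing genes, Srsf2 and U2af1 were both lowest in the T/NK class, at 172 ± 27.1 and 180.4 ± 25.2 CPM. For both, the class stood below its neighbour, the basophil-mast class, in 8 of 8 replicates, with log2 differences of 0.87 ± 0.28 and 0.38 ± 0.21. Srsf2 was highest in megakaryocyte (416 ± 43.6 CPM) and erythroid cells (414 ± 15.8 CPM), and erythroid cells exceeded monocyte progenitors (365 ± 18.7 CPM) in 8 of 8 replicates. U2af1 was highest in erythroid cells at 448 ± 34.6 CPM, above neutrophil-granulocyte progenitors at 387 ± 14.3 CPM in 8 of 8 replicates. Sf3b1 had another order, with B cells at 476 ± 23.2 CPM, above lymphoid-primed progenitors at 328 ± 30.3 CPM in 8 of 8 replicates (log2 difference 0.54 ± 0.11), and the 7 classes below them between 244 and 316 CPM.

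Jak2 and Cbl covered wide ranges. Jak2 averaged 151 ± 26.8 CPM in basophil-mast cells and 95.8 ± 34.7 CPM in the T/NK class. Megakaryocyte, erythroid and HSC-class cells followed at 63.5, 57.2 and 55.7 CPM, and the lowest values were those of B cells (30.9 ± 3.37 CPM) and neutrophil-granulocyte progenitors (26.4 ± 1.63 CPM). None of its neighbour pairs passed (lowest adjusted p = 0.0568, exact permutation test). The top class exceeded the bottom by 2.45 ± 0.24 on the log2 scale in 8 of 8 replicates. That contrast, too, was picked by the means and not tested. Cbl averaged 229.9 ± 33.2 CPM in the T/NK class, above monocyte progenitors (140.1 ± 17.2 CPM) in 8 of 8 replicates with a log2 difference of 0.71 ± 0.21. A further 3 pairs of Cbl passed: lymphoid-primed (133 ± 9.69 CPM) above neutrophil-granulocyte progenitors (109 ± 9.83 CPM), B cells (102 ± 12.2 CPM) above megakaryocyte cells (70.7 ± 8.97 CPM), and these above basophil-mast cells (43.4 ± 5.78 CPM). Basophil-mast cells thus had the highest Jak2 and the second lowest Cbl of the 9 classes.

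Shares of cells with at least 1 UMI were counted after each cell was thinned to 2000 UMIs. Cbl was detected in 36.1% ± 8.77 of T/NK-class cells and 7.96% ± 2.04 of erythroid cells (59.3% and 36.0% unthinned; median depths 3548.5 and 12776.5 UMIs). Jak2 was detected in 26.5% of basophil-mast cells and 5.8% of neutrophil-granulocyte progenitors after thinning. Dnmt3a was detected in 17.5% of HSC-class cells and 4.7% of erythroid cells. The shares followed the order of the CPM between these classes. No class is known to lack any of these genes, so the lowest class is not a measure of free RNA, and the part of free RNA in the low shares was not tested.

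Clonal haematopoiesis starts in stem cells, and the HSC class was set against the mean of the other 8 classes within each replicate, a comparison chosen after seeing the data. Dnmt3a, Asxl1, Trp53 and Srsf2 were higher in HSC-class cells in 8 of 8 replicates, by 0.75 ± 0.20, 0.45 ± 0.19, 0.29 ± 0.09 and 0.12 ± 0.04 on the log2 scale (SD; adjusted p = 0.0195 each over 10 genes, exact sign-flip permutation test). Mean levels were 103 CPM in the HSC class and 68.3 CPM over the other classes for Dnmt3a. In the same order they were 115 and 86.5 CPM for Asxl1, and 351 and 333 CPM for Srsf2. The comparison was made on unthinned cells, without the stricter gate. By class means the HSC class ranked 1 for Asxl1, 2 for Trp53, 3 for Dnmt3a and only 5 for Srsf2. For Asxl1 the lymphoid-primed class was the highest with the stricter gate and after thinning. For Srsf2 the megakaryocyte (416 CPM), erythroid (414 CPM), monocyte (365 CPM) and B cell (354 CPM) classes were higher. The mean of the other classes for Srsf2 includes the low T/NK class (172 CPM). Tet2 was higher by 0.21 ± 0.22 in 6 of 8 replicates and Sf3b1 lower by 0.10 ± 0.14 in 6 of 8, and neither passed (adjusted p = 0.0781 each, exact permutation test). Ppm1d, Jak2, U2af1 and Cbl also missed the threshold, with log2 differences between -0.03 and 0.14.

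Genes with the most similar order of classes were sought among 6832 genes with a mean of at least 20 CPM, by Pearson's r of the mean log2(CPM + 1) over the 9 classes. With so many genes and 9 points that share their libraries, high values of r are a description. For Dnmt3a they were Galnt2 (r = 0.94), Setd7 (0.92) and Tafazzin (0.92), and for Tet2 Fam107b (0.96), Gnai2 (0.96) and Glud1 (0.95). For Asxl1 they were Zfp644 (0.97), Qrich1 (0.96) and Wdr70 (0.95), for Trp53 Snhg1 (0.94), Fbxo3 (0.94) and Atg2b (0.94), and for Ppm1d Ccnt2 (0.98), Clasp1 (0.97) and Sephs1 (0.97). The splicing genes were closest to Vps52 (0.97), Mrps28 (0.97) and Ift27 (0.97) for Srsf2, to Ddx52 (0.98), Dnajc7 (0.97) and Prpf38b (0.97) for Sf3b1, and to Pno1 (0.99) and Snrpd1 (0.99) for U2af1. Jak2 was closest to Furin (0.94), Gcnt1 (0.93) and Ifrd1 (0.90), and Cbl to Gpr65 (0.96), Arap2 (0.94) and 1700025G04Rik (0.93). Among the 10 genes themselves, Srsf2 and U2af1 had the most similar order (r = 0.87), then Asxl1 and Ppm1d (0.84), and Tet2 and U2af1 had the most opposed (-0.69).

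Within the classes, none of the 10 genes passed the test of surgery against sham either. Of 89 tests of a gene in a class, edgeR's quasi-likelihood test called 0 and DESeq2 called 0. An unadjusted p under 0.05 was found in 2 of the 89, against 4.49% of all genes tested over the 9 classes, and 43 fold changes were above and 46 below 0. Ppm1d had too few counts in the T/NK class to be tested. Genes called in these classes made up 0.0553% of those tested in the HSC class, 0.482% in lymphoid-primed, 0.022% in neutrophil-granulocyte, 0.0302% in monocyte, 0% in erythroid, 0.0145% in megakaryocyte, 0.012% in basophil-mast, 0% in B cell and 0.163% in T/NK classes. In the erythroid class 3.12% and in the B cell class 3.97% of genes had an unadjusted p under 0.05, and DESeq2 called 0 genes in the erythroid class, and 6 higher and 1 lower in the B cell class. The 95% intervals of all 89 fold changes lay within 1 log2 unit on either side of 0, that is, within a 2-fold change.

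**Figure D4:**
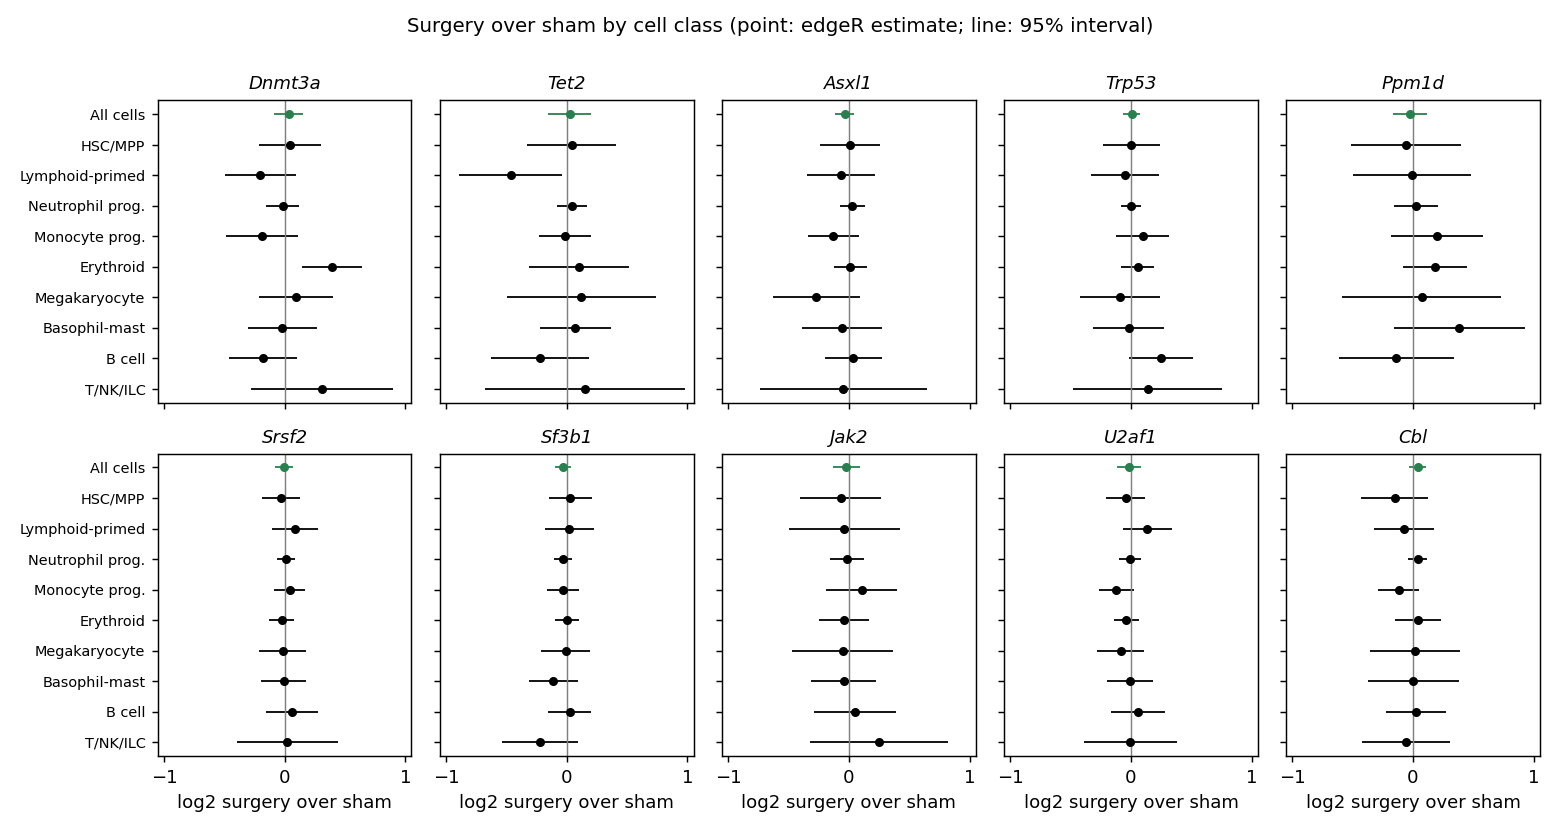
Log2 fold change of surgery over sham (horizontal axis) for each gene over all cells (green, top) and in each class; points are edgeR estimates and lines 95% intervals. Intervals are narrow over all cells and in neutrophil-granulocyte progenitors and widest in the T/NK class, Dnmt3a in erythroid cells and Tet2 in lymphoid-primed cells are the 2 class intervals that leave out 0, and Ppm1d was not tested in the T/NK class.

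In HSC-class cells all 10 genes overlapped between the groups. Groups without overlap were found for 2.24% of all genes tested over the 9 classes together. Dnmt3a had 125, 138, 74.7 and 82.6 CPM in surgery replicates, against 97.9, 119, 97.8 and 89.9 CPM in sham replicates. The surgery replicates were the 2 highest in batch 1 and the 2 lowest in batch 2, with log2 ratios of 0.28 and -0.25 and an overall log2 fold change of 0.04 ± 0.13 (95% interval -0.22 to 0.30). Tet2 had 44.0, 91.4, 41.2 and 44.6 CPM in surgery replicates, against 63.7, 62.2, 41.1 and 53.2 CPM in sham replicates. One surgery replicate, the second of batch 1, stood far above the other 3, and the log2 fold change was 0.04 ± 0.18. Asxl1 had 111, 97.7, 122 and 126 CPM in surgery replicates, against 132, 122, 102 and 106 CPM in sham replicates. The 2 surgery replicates were below both sham replicates in batch 1 and above both in batch 2, the reverse of Dnmt3a, with log2 ratios of -0.28 and 0.25. The difference between batches had an unadjusted p of 0.0224 and an adjusted p of 0.9997 (edgeR interaction); for Dnmt3a the unadjusted p was 0.0583. Trp53 averaged 110.4 ± 18.4 CPM in surgery and 111 ± 10.6 CPM in sham replicates (SD, n = 4 each), with log2 ratios of -0.03 in batch 1 and 0.02 in batch 2. The fold change of the 10 genes that was farthest from 0 was that of Cbl, at -0.15 ± 0.14, with 86.4, 123, 85.4 and 95.01 CPM in surgery replicates and 90.1, 136, 113 and 96.4 CPM in sham replicates. Its groups overlapped. The HSC class had between 188 UMIs (Ppm1d) and 2586 UMIs (Srsf2) per gene over the 8 replicates, and the interval of Ppm1d, -0.51 to 0.40, was the widest of the 10 there. In none of the 9 classes did the surgery effect on any of the 10 genes pass an interaction test against that in the other gated cells (edgeR, lowest adjusted p = 0.52; 0.0285% of all tests called), nor between batches (lowest adjusted p = 0.685; 0.0326% called). Of the 89 tests between batches, 2 had an unadjusted p under 0.05, Asxl1 in the HSC class and Jak2 in lymphoid-primed cells.

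Only 2 class results of the 89 had an unadjusted p under 0.05, and neither passed the adjustment. In erythroid cells Dnmt3a had 24.0, 21.8, 26.1 and 23.1 CPM in surgery replicates, against 18.2, 18.2, 16.8 and 17.8 CPM in sham replicates. All 4 surgery replicates were above all 4 sham replicates, and this was the 1 of 89 pairs of gene and class without overlap, against 2.24% of all genes over the 9 classes and 1.64% in erythroid cells. The log2 fold change was 0.39 ± 0.12 (SE; 0.33 in batch 1 and 0.51 in batch 2), with an unadjusted p of 0.0039 and an adjusted p of 0.9998 (edgeR). It rested on 46 to 138 UMIs per replicate, in the class where Dnmt3a was lowest, and was 0.16 when cells were thinned to 2000 UMIs. In lymphoid-primed cells Tet2 had 37.8, 65.0, 24.3 and 36.0 CPM in surgery replicates, against 64.9, 54.2, 50.9 and 64.8 CPM in sham replicates. Of the surgery replicates, 3 were below all sham replicates and 1 was just above them, on 10 to 75 UMIs each. The log2 fold change was -0.47 ± 0.21 (-0.21 in batch 1 and -0.94 in batch 2; unadjusted p = 0.0315, adjusted p = 0.444, edgeR), in a class where 9.98% of all genes had an unadjusted p under 0.05.

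The genes that work with these drivers were followed in 7 lists, of partners in DNA methylation, ASXL and polycomb complexes, the p53 pathway, splicing, JAK-STAT signalling, CBL signalling, and other genes mutated in clonal haematopoiesis and myeloid malignancy. Over all cells, 1 gene of the 7 lists rose and 0 fell. This was Pmaip1 of the p53 pathway list, which encodes the pro-apoptotic protein NOXA. Pmaip1 had 17.4, 17.8, 16.9 and 17.8 CPM in surgery replicates, against 12.8, 12.9, 12.2 and 13.1 CPM in sham replicates. The groups did not overlap, which held for 1.68% of all genes, and the log2 fold change was 0.47 ± 0.05 (adjusted p = 0.0356, edgeR; 0.45 in batch 1 and 0.46 in batch 2). The call held in 8 of 18 alternative settings, with an adjusted p of up to 0.204. The other 31 genes of that list were not called. Mdm2, which targets p53 for degradation, had 48.1 ± 2.68 CPM in surgery and 47.6 ± 4.52 CPM in sham replicates, and Cdkn1a, which encodes the cell cycle inhibitor p21, had 30.3 ± 6.57 and 28.9 ± 2.79 CPM in the same order (SD, n = 4 each). Their log2 ratios were -0.01 in batch 1 and 0.04 in batch 2 for Mdm2, and 0.24 and -0.15 for Cdkn1a. The median log2 fold change of the 32 genes of the list was -0.03, beside -0.0021 for all genes tested.

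Pmaip1 also rose in monocyte progenitors, where it had 64.9, 59.0, 57.1 and 57.4 CPM in surgery replicates, against 45.7, 40.8, 31.1 and 32.7 CPM in sham replicates. The groups did not overlap, and the log2 fold change was 0.70 ± 0.12 (adjusted p = 0.0264, edgeR; 0.52 in batch 1 and 0.84 in batch 2; called in 8 of 19 alternatives, with an adjusted p of up to 0.983 under the stricter gate). Cux1, a transcription factor gene of the myeloid malignancy list that is often lost in human disease, rose in 2 early classes. In lymphoid-primed cells it had 1049, 1182, 956 and 978 CPM in surgery replicates, against 836, 777, 851 and 733 CPM in sham replicates, without overlap. The log2 fold change there was 0.41 ± 0.07 (adjusted p = 0.0024, edgeR; 0.47 in batch 1 and 0.29 in batch 2), and 17 of 19 alternatives called it, with an adjusted p of 0.141 after thinning. In HSC-class cells it had 857, 794, 615 and 656 CPM in surgery replicates, against 640.2, 584, 557 and 543 CPM in sham replicates. The groups overlapped by 1 replicate, the log2 fold change was 0.34 ± 0.07 (adjusted p = 0.0457, edgeR; 0.43 in batch 1 and 0.21 in batch 2), and 4 of 19 alternatives called it, with an adjusted p of 0.9998 without the batch term. Over the 7 lists and the 10 sets of cells, these 4 of 1804 tests were called, all 4 higher in surgery mice. Over the same sets of cells 66 of 96632 tests of all genes were called (0.0683%), 57 of them higher (0.059%) and 9 lower (0.00931%). Some genes stand in more than 1 list and count once in each. The 4 calls are those of Pmaip1 and Cux1 alone, and the sum over all cells includes the monocyte progenitors. The lists were chosen with earlier results of these data known. Their count of calls is therefore not an independent comparison with that of all genes.

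The remaining lists held no called gene over all cells. Among DNA methylation partners, Idh1, whose mutant form in humans blocks TET enzymes, had 61.7 ± 1.74 CPM in surgery and 55.4 ± 3.59 CPM in sham replicates (log2 fold change 0.17 ± 0.04), and Dnmt1, the maintenance methyltransferase, had 137 ± 30.2 and 153 ± 13.3 CPM in the same order. The log2 ratios in batch 1 and batch 2 were 0.21 and 0.10 for Idh1, and 0.05 and -0.37 for Dnmt1. Of the 34 splicing factors tested, 9 had a positive fold change, and all 34 lay between -0.09 and 0.02 on the log2 scale. Their median was -0.013, beside -0.0021 for all genes tested. In lymphoid-primed and in megakaryocyte cells 19 of 32 were positive, and in basophil-mast cells 18 of 32. The other classes ran from 8 of 27 (T/NK class) to 15 of 33 (B cells). In the JAK-STAT list Pim1, a kinase gene induced by STAT5, had 119 ± 15.6 CPM in surgery and 106 ± 11.3 CPM in sham replicates (0.18 ± 0.06). It had the highest fold change of that list, whose values ran down to -0.40. Of the 32 genes tested there, 16 were positive, and the median was 0.0074. Among the other myeloid malignancy genes Cebpa, a granulocyte and monocyte factor, had 91.4 ± 3.19 CPM in surgery and 80.6 ± 4.46 CPM in sham replicates, without overlap (0.20 ± 0.04, adjusted p = 0.628, edgeR). The fold changes of this list ran down to -0.21. Of its 53 genes tested, 21 were positive, and the median was -0.0076. Among CBL partners and substrates, Kit had 109.8 ± 5.18 CPM in surgery and 107 ± 3.32 CPM in sham replicates, and Flt3 had 35.9 ± 7.17 and 41.5 ± 10.9 CPM in the same order. The log2 ratios in batch 1 and batch 2 were 0.19 and 0.14 for Pim1, 0.17 and 0.19 for Cebpa, 0.04 and 0.03 for Kit, and 0.16 and -0.59 for Flt3. None of these genes passed the test.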

How the data were processed

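UMI counts per gene and barcode were deposited by the authors as whole numbers without normalisation, with hashtag counts in further lines. Cell Ranger and GRCm38 are named in the submitters' processing notes; the version, strand setting and cell calling are not given in the sources used here. Hashtag lines (22.2% and 16.1% of counts in the 2 captures) were kept out of library sizes and tests. Kept barcodes had 500 or more genes, 1000 or more UMIs, no more than 10% mitochondrial UMIs and exactly 1 hashtag with 200 or more counts; replicates then held 19521590 to 51862441 UMIs. Doublets with 2 hashtags were thereby removed; Scrublet called 0.592% and 0.671% of barcodes, and these were left out as an alternative.

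Each cell was scored on 15 marker lists by the mean of log-scaled levels relative to the 90th percentile of cells with a UMI. It took the class of its top list if at least 3 markers were detected and the score was at least 1.5 times the next (2 times for the stricter gate). This rule was set after the data were seen. A further 3254 cells, by class between 2 and 939, missed that ratio but reached 1.25 times.

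UMIs were summed per replicate and class. Surgery and sham were compared with edgeR 4.0.16 (R 4.3.3; filterByExpr, TMM, batch as a term, quasi-likelihood test, Benjamini-Hochberg over all genes of a set of cells); DESeq2 1.42.0 was an alternative. CPM use total UMIs without TMM factors. The code was tested on simulated data. Coordinates are whole gene spans of GENCODE mouse release 21 on GRCm38. The 10 genes, the related lists and the marker lists were chosen with earlier results of these data known. Of related lists the text names every gene past the threshold, and otherwise some of the genes with the highest and lowest fold change among those of at least 20 CPM. Of the genes with the most similar order of classes, 1 is not reported here.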

Additional observations from a re-analysis of the deposited data

Results flagged for a closer look

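In 200 groups of 4 replicates (10 genes, 10 sets of cells, surgery and sham), 8 held a replicate far from the other 3 by Dixon's test, where chance gives about 5%. In HSC-class cells Tet2 was 91.4 CPM in the second surgery replicate of batch 1, against 41.2 to 44.6 CPM in the other surgery replicates; the same replicate was high for Tet2 in erythroid cells, at 21.8 CPM against 13.5 to 14.8 CPM. The first surgery replicate of batch 2 stood apart 3 times. It was low for Dnmt3a in monocyte progenitors (23.9 CPM against 35.0 to 37.0 CPM) and for Asxl1 in basophil-mast cells (48.1 CPM against 90.2 to 94.6 CPM), and high for Ppm1d in the T/NK class (73.0 CPM against 16.5 to 19.8 CPM, on 5 UMIs). In the T/NK class Trp53 was 41.7 CPM in the first surgery replicate of batch 1, on 7 UMIs, against 82.3 to 87.6 CPM. Among sham replicates of basophil-mast cells, U2af1 was 248.9 CPM in the second of batch 1 against 227.0 to 228.7 CPM, and Cbl was 52.7 CPM in the second of batch 2 against 38.9 to 39.9 CPM.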

How the results depend on the processing

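The count of driver genes past the threshold stayed at 0 over all cells and in each of the 9 classes under every alternative that gave a value: DESeq2, no TMM factors, no low-count filter, no batch term, a replicate block, other hashtag minimums, no cell filter, Scrublet calls left out, thinning, the stricter gate and each replicate left out. Over 1852 such values the lowest adjusted p was 0.132, for Tet2 in lymphoid-primed cells without the second surgery replicate of batch 1, and 240 had the other sign, the largest of them 0.40 in size. Genes called over all cells ranged between 0 with the replicate block and 22 without the low-count filter, beside 7 as reported; in lymphoid-primed cells they ranged between 13 and 76, beside 40, and in neutrophil-granulocyte progenitors between 0 and 82, beside 3. Replicates of equal number did not deviate together (r = 0.0057 in batch 1 and 0.0014 in batch 2), so the numbers were not taken as pairs. Of 80 neighbour pairs of classes, 16 passed as reported, 17 passed with the stricter gate and 16 with a pseudocount of 5. With the stricter gate 11 of the 16 reported pairs reached the smallest p. After thinning 0 passed, where 7 pairs reached the smallest p and 13 are needed for any to pass. Thinning gave another highest class for Dnmt3a (megakaryocyte), Tet2 (monocyte progenitors) and Asxl1 (lymphoid-primed, as also with the stricter gate), and another lowest class for Trp53 (B cells) and Cbl (basophil-mast cells). The T/NK class, with as few as 16 cells in a replicate, gave the widest intervals.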
